A study of Mus musculus with 12 samples.

Results

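Ribosome biogenesis and nucleolar genes were followed through the differentiation of C2C12 cells, a mouse myoblast line that fuses into multinucleated myotubes in culture. The 50 genes were taken as a list of symbols and were found in the annotation of the array, which covers 19057 genes by probes of 1 gene each. Of the 50 genes, 47 had a probe, and each was represented by its brightest probe over all 12 arrays. A gene was tested if a stage had all 3 of its arrays above the median signal of the array, which held for 41 of these genes and for 11883 genes in all. Of the 41 genes, 40 exceeded that median in all 4 stages, and 1, Rrs1, did so in only part of them. The genes beside Myc were grouped by role into RNA polymerase I, nucleolar scaffold and chaperone proteins, the box C/D and box H/ACA particles, and the assembly factors of the small and of the large ribosomal subunit.

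In the nucleolus, RNA polymerase I transcribes a long precursor that carries the ribosomal RNAs of both subunits. Small nucleolar RNA particles (snoRNPs) guide the chemical modification of this precursor, box C/D particles by methylation and box H/ACA particles by pseudouridylation, while assembly factors fold, cut and export the pre-ribosomes. The transcription factor Myc is known to raise the transcription of many of these genes in growing cells, and ribosome production is known to slow as myoblasts leave the cell cycle.

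The 12 arrays fell into 4 groups of 3, namely myoblasts grown to 50% confluence, myoblasts grown to 95%, and myotubes differentiated for 24 h or for 48 h. The growth medium of the myoblasts held bovine calf serum. Differentiation was induced in fully confluent cells by horse serum with insulin and transferrin. Time and medium thus cannot be told apart between myotubes and myoblasts. Neither can cell density, which was below full confluence in both myoblast groups and furthest below it in the 50% group. All groups came from a single unmodified cell line, and the labels number the replicates and do not give their source. The p-values thus rest on the spread among these arrays, which may be technical. In bulk RNA, fewer cells of a type and less RNA per cell cannot be told apart.

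Levels are the authors' deposited normalised values, taken as log2 intensities. The myoblast and myotube marker list held 16 genes, of which Myf5 and Pax7 were below the filter. All 13 tested genes were higher at 48 h than at 50% confluence, as were 26.5% of all genes tested. Among them was Myog (12.50, 12.68 and 12.40 on the 48 h arrays, against 7.92, 7.67 and 7.71 on the 50% arrays). At 95% against 50% confluence 7 of the 13 were lower (21% of all genes) and 0 higher (18.9%). Without array 3 of the 95% group 6 were lower (25.5%) and 2 higher (23.2%). Acta1, a muscle actin, averaged 11.66 at 50% and 8.55 at 95%. Of markers of other cell types, 3 of 8 adipocyte, 3 of 7 osteoblast, 4 of 7 endothelial and 2 of 8 macrophage and leukocyte genes were above the filter, while Adipoq, Bglap, Cdh5 and Ptprc, defining genes of these types, were not. Among those above it, Pparg (8.05 at 48 h, against 8.90 at 50% confluence), Cd14 (7.24, against 8.23) and Sp7 (6.61, against 7.02) were lower and Vwf (7.15, against 6.53) and Tek (6.85, against 6.68) were higher in the limma test, with log2 changes of -0.85, -0.98, -0.41, 0.62 and 0.17. Lpl, at 9.12 and 9.01, did not pass. The summed log2 level was 49.8 to 50.1 at 48 h and 50.7 to 50.9 at 50% confluence for adipocyte genes, 40.1 to 40.4 and 40.6 to 40.7 for osteoblast genes, 47.1 to 47.4 and 46.4 to 46.6 for endothelial genes, and 46.6 to 46.7 and 47.6 to 47.9 for macrophage and leukocyte genes. The part of these changes in the results was not tested. Array 3 of the 95% group stood apart from its group. It correlated with the other 95% arrays at 0.985 and 0.986 over all genes tested, where arrays 1 and 2 of that group correlated at 0.996 and the arrays of the other groups at 0.997 or 0.998. Tests that set the 95% group against another are therefore given with all arrays and, for the counts, the medians and most of the genes described, also without this array.

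The whole course was described by setting 48 h myotubes against 50% confluent myoblasts. Most of the machinery was lower at 48 h, led by nucleolin and the snoRNP core proteins Gar1, Nop56, Nop58 and Nhp2. Of the 41 genes tested, 32 passed the test as lower (limma, adjusted p under 0.05), where 29.9% of all genes tested did so. One gene, Rrp1, passed as higher, where 26.5% of all genes did, and 8 did not pass. The median log2 change of the 41 genes was -0.70, and that of all genes tested was -0.01. All arrays hold a single set of values, which leaves little room for a shift over all genes, so changes are relative to the other genes. Changes ranged from -1.36 for Ncl to 0.37 for Rrp1. On the arrays themselves, 38 of the 41 genes had every 48 h value below every 50% value, where 34.7% of all genes did, and Rrp1 had every value above (31.2% of all genes). Array 3 of the 95% group enters this comparison through the estimate of the spread and the set of genes tested, not through either mean. Without it, 37 genes passed as lower (32% of all genes tested) and Rrp1 again as higher. The stage with the highest mean was 50% confluence for 34 of the 41 genes, as it was for 28.4% of all genes. The lowest mean fell at 48 h for 26 of the 41 genes and for 33.4% of all genes. Without array 3 of the 95% group these were 38 genes (29.4%) and 24 genes (32.5%), and the lowest mean fell at 95% confluence for 10 genes, against 2 with that array.

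**Figure D1:**
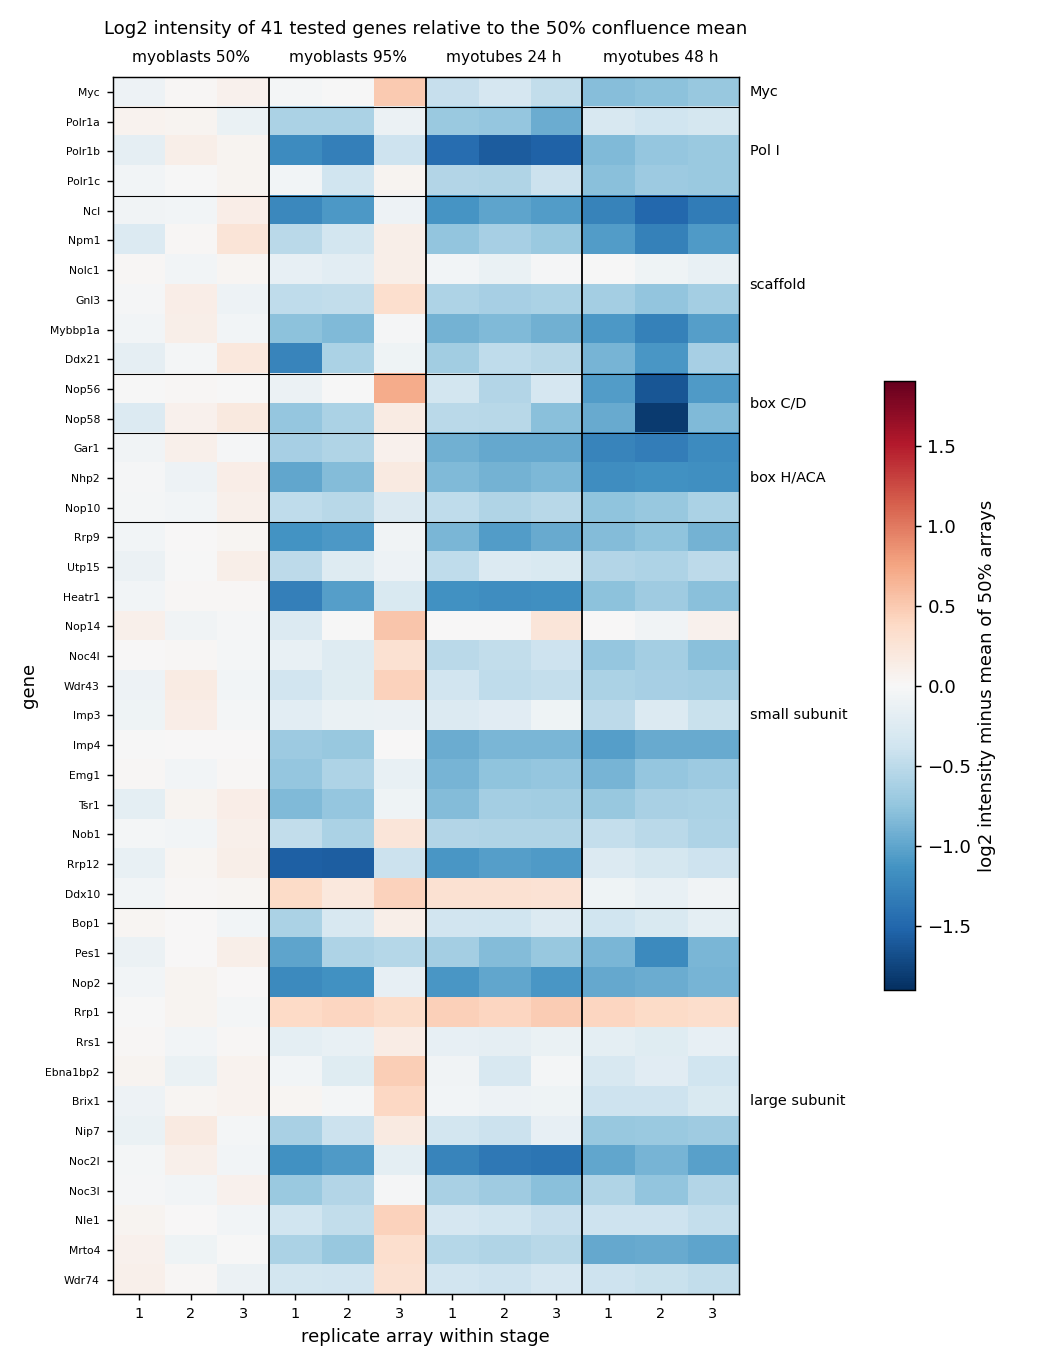
Log2 intensity minus the mean of the 50% arrays for the 41 tested genes (one gene a line, ordered by role) on the 12 arrays (columns, 3 per stage). Blue is below and red above the 50% mean. Most lines are blue in the 24 h and 48 h columns, while array 3 of the 95% group lies above both other 95% arrays in 40 of 41 lines.

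Myc is known to raise the transcription of many of these genes in growing cells, which was not tested here. It measured 7.59, 7.70 and 7.77 on the 50% arrays, 7.65, 7.69 and 8.19 on the 95% arrays, 7.25, 7.38 and 7.22 on the 24 h arrays, and 6.88, 6.91 and 6.97 on the 48 h arrays. The 2 myotube groups lay below all myoblast arrays and did not overlap with each other, while the 2 myoblast groups overlapped. The 48 h minus 50% log2 change was -0.77 (SE 0.12, adjusted p = 0.000118). Between 95% and 50% confluence the log2 difference was 0.16 (SE 0.12, adjusted p = 0.329), or -0.02 without array 3 of the 95% group, so no change at confluence was detected. Myc fell in both days of differentiation, by 0.56 on the log2 scale in 24 h myotubes against 95% confluent myoblasts (SE 0.12, adjusted p = 0.00263), or by 0.39 without array 3 (SE 0.06, adjusted p = 0.000258), and by 0.37 in 48 h against 24 h myotubes (SE 0.12, adjusted p = 0.0232). The second of these falls lost its call without array 2 of the 24 h group or array 1 or 2 of the 48 h group, with an adjusted p of up to 0.0856. Myc signal lies close to the array median of 6.68, where the scale may understate a change.

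Because Myc is known to bind the E-box CACGTG, the promoters of the genes were searched for it. RefSeq (GRCm38.p6) supplied the 250 bases before and 50 bases after the transcription start for 44 of the 50 genes, 47 promoters in all. The palindrome CACGTG, which reads the same on both strands, was present in 8 of the 47 promoters (17%), against 9.71% of the promoters of all genes tested and 7.15% of all promoters. Shown here are 4 promoters with the E-box, which belong to Mybbp1a, Imp4, Pes1 and Nop2, genes with large falls, and 2 without it, of Ncl, the gene with the largest fall, and of Rrp1, the gene that rose. They lie at chr11:72441077-72441376 on the plus strand, chr1:34439579-34439878 on the plus strand, chr11:3963725-3964024 on the plus strand, chr6:125131633-125131932 on the plus strand, chr1:86359406-86359705 on the minus strand and chr10:78412994-78413293 on the minus strand. Capitals mark the E-box, and each sequence runs 5′ to 3′ along the gene.
Mybbp1a: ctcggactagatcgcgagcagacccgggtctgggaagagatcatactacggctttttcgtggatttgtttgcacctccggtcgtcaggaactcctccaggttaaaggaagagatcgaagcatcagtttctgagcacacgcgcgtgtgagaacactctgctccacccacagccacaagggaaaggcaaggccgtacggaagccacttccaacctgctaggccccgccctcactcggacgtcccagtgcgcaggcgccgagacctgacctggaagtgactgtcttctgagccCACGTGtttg
Imp4: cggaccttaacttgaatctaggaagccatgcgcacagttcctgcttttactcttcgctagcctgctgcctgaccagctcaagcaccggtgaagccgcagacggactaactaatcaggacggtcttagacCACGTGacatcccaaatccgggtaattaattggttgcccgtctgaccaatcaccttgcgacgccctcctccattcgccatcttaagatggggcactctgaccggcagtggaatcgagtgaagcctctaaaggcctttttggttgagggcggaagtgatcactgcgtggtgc
Pes1: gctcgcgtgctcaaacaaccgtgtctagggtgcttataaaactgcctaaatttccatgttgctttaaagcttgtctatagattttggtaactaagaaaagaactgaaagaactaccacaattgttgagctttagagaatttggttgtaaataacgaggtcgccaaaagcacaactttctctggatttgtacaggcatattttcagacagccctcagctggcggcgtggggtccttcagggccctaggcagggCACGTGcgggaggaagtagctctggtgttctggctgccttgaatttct
Nop2: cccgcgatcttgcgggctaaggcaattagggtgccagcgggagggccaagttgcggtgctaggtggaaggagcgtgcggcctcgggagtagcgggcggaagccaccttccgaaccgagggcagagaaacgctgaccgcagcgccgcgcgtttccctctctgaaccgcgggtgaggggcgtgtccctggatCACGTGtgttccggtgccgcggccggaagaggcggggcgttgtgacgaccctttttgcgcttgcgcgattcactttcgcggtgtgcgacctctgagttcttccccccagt
Ncl: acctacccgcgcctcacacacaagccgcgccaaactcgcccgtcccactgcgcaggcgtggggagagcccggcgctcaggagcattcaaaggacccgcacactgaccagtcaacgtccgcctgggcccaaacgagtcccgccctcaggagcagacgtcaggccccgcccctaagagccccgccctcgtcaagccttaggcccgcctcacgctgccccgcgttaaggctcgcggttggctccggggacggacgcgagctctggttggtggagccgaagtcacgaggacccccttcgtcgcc
Rrp1: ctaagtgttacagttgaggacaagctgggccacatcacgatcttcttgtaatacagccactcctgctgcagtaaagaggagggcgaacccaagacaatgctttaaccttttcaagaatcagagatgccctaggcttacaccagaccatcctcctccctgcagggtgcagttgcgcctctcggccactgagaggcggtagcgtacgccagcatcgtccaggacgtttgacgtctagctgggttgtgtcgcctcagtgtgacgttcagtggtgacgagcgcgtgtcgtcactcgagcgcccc
The first base of the E-box lies at 41 in Mybbp1a, at -121 in Imp4, at 3 in Pes1 and at -60 in Nop2, counted from the transcription start. The E-box was also present in the promoters of Wdr43, Tsr1, Nle1 and Utp18. Among tested genes with a promoter entry, the 7 with the E-box had a median 48 h minus 50% log2 change of -0.93, and 6 of them passed as lower. The 29 without it had a median of -0.70, and 24 passed as lower. The ranges overlapped, at -1.14 to -0.41 with the E-box and -1.36 to 0.37 without it. The GC box, GGGCGG on either strand, was present in 68.1% of the promoters of these genes and 59.7% of those of all genes tested. CCAAT on either strand was present in 29.8% and 37.4%.

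All 3 RNA polymerase I subunits were lower at 48 h than at 50% confluence, where 29.9% of all genes tested were. For 2 of them the lowest mean fell at 24 h, as it did for 19.6% of all genes. Polr1a, the largest catalytic subunit, measured 11.43, 11.42 and 11.23 on the 50% arrays, 10.76, 10.76 and 11.24 on the 95% arrays, 10.66, 10.62 and 10.42 on the 24 h arrays, and 11.05, 10.99 and 11.02 on the 48 h arrays. The 48 h arrays lay above all 24 h arrays and below all 50% arrays. Polr1b, the other large subunit of the catalytic core, measured 9.40, 9.67 and 9.62 at 50%, 8.37, 8.26 and 9.17 at 95%, 8.12, 7.99 and 8.03 at 24 h, and 8.72, 8.83 and 8.86 at 48 h. It too was lowest at 24 h, with no overlap between the 24 h and 48 h arrays. Polr1c, a subunit shared with RNA polymerase III, measured 10.28, 10.32 and 10.38 at 50%, 10.27, 9.95 and 10.39 at 95%, 9.78, 9.76 and 9.91 at 24 h, and 9.53, 9.63 and 9.63 at 48 h. In contrast to the other subunits it was lowest at 48 h. The 48 h minus 50% log2 changes were -0.34 for Polr1a (SE 0.12, adjusted p = 0.0257), -0.76 for Polr1b (SE 0.18, adjusted p = 0.00343) and -0.73 for Polr1c (SE 0.09, adjusted p = 2.91e-05). The call of Polr1a was lost without array 1 or 2 of the 50% group or without any 1 of the 48 h arrays, with an adjusted p of up to 0.0825. A dim second probe of Polr1a gave 0.09 for the same comparison, and another kept probe gave -0.40.

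Of 6 tested nucleolar scaffold and chaperone genes, 5 were lower at 48 h than at 50% confluence, where 29.9% of all genes tested were, and Nolc1 did not pass. Ncl, nucleolin, an abundant protein that binds the ribosomal RNA precursor, measured 10.60, 10.62 and 10.79 on the 50% arrays, 9.45, 9.59 and 10.58 on the 95% arrays, 9.55, 9.68 and 9.61 on the 24 h arrays, and 9.41, 9.18 and 9.34 on the 48 h arrays. Arrays 1 and 2 of the 95% group were already at the level of the myotubes, and array 3 was near the 50% arrays. Its 48 h minus 50% log2 change was -1.36 (SE 0.22, adjusted p = 0.000199), a 2.57-fold lower intensity. Mybbp1a, a nucleolar protein that regulates RNA polymerase I, measured 12.10, 12.26 and 12.10 at 50%, 11.37, 11.32 and 12.13 at 95%, 11.26, 11.31 and 11.24 at 24 h, and 11.05, 10.87 and 11.10 at 48 h. The same array of the 95% group was high, and the 48 h arrays lay below all others. Its log2 change was -1.14 (SE 0.17, adjusted p = 8.72e-05).

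Npm1, nucleophosmin, a histone and ribosomal protein chaperone, was named after its values were seen. It measured 13.75, 14.04 and 14.26 at 50%, 13.50, 13.67 and 14.13 at 95%, 13.27, 13.39 and 13.31 at 24 h, and 12.96, 12.73 and 12.94 at 48 h, with overlap between the 2 myoblast groups only. The 48 h minus 50% log2 change was -1.14 (SE 0.15, adjusted p = 4.09e-05), and that of 95% minus 50% was -0.25 and did not pass (SE 0.15, adjusted p = 0.222), or -0.43 without array 3 (adjusted p = 0.00649). Gnl3, nucleostemin, a GTPase abundant in dividing cells, changed by -0.68 (adjusted p = 0.00363), and Ddx21, an RNA helicase of RNA polymerase I transcription and rRNA processing, by -0.88 (adjusted p = 0.00554). Nolc1, a chaperone of snoRNPs, had the smallest change of the role. It measured 6.98, 6.91 and 7.00 at 50%, 6.81, 6.77 and 7.08 at 95%, 6.91, 6.83 and 6.94 at 24 h, and 6.96, 6.88 and 6.83 at 48 h, all close to the array median. The groups overlapped throughout, and the log2 change was -0.07 (SE 0.07, adjusted p = 0.459).

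Both tested core proteins of box C/D particles, Nop56 and Nop58, were lower at 48 h than at 50% confluence. Of all genes tested 29.9% were lower. Nop56 measured 10.74, 10.77 and 10.74 at 50%, 10.65, 10.74 and 11.46 at 95%, 10.39, 10.19 and 10.43 at 24 h, and 9.69, 9.12 and 9.68 at 48 h. The 50% arrays and arrays 1 and 2 of the 95% group lay close together, array 3 of the 95% group lay above them, and array 2 of the 48 h group was lower than the other 48 h arrays. Nop58 measured 10.82, 11.16 and 11.27 at 50%, 10.34, 10.48 and 11.23 at 95%, 10.57, 10.56 and 10.29 at 24 h, and 10.12, 9.26 and 10.24 at 48 h. Array 2 of the 48 h group was again low. From 50% confluence the 48 h log2 values differed by -1.25 for Nop56 (SE 0.19, adjusted p = 0.000139) and -1.21 for Nop58 (SE 0.26, adjusted p = 0.00182). Leaving out single arrays and the other alternatives moved these to between -1.35 and -1.07 for Nop56 and between -1.39 and -0.90 for Nop58, with both calls kept. For 48 h against 24 h, Nop56 changed by -0.84 (SE 0.19, adjusted p = 0.00381), and the change of Nop58 did not pass with all 12 arrays. The methyltransferase of the particle, Fbl, had no probe.

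The box H/ACA proteins Gar1, Nhp2 and Nop10, partners of the pseudouridine synthase Dkc1, were also all lower at 48 h. The share of all genes tested was 29.9%. Gar1 measured 12.40, 12.55 and 12.43 at 50%, 11.82, 11.88 and 12.54 at 95%, 11.54, 11.49 and 11.48 at 24 h, and 11.20, 11.14 and 11.26 at 48 h. Array 3 of the 95% group aside, the stages formed 4 separate levels in descending order. Nhp2 measured 12.31, 12.23 and 12.45 at 50%, 11.35, 11.51 and 12.51 at 95%, 11.49, 11.43 and 11.47 at 24 h, and 11.15, 11.18 and 11.17 at 48 h. Nop10 measured 12.03, 12.02 and 12.16 at 50%, 11.59, 11.54 and 11.80 at 95%, 11.59, 11.50 and 11.54 at 24 h, and 11.31, 11.36 and 11.47 at 48 h. For both, the 48 h arrays lay below all other arrays and the 50% and 24 h arrays did not overlap. Log2 changes of 48 h minus 50% were -1.26 for Gar1 (SE 0.15, adjusted p = 1.22e-05), -1.17 for Nhp2 (SE 0.22, adjusted p = 0.000627) and -0.69 for Nop10 (SE 0.07, adjusted p = 5.55e-06).

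Of 13 tested factors of small subunit assembly, 10 were lower at 48 h than at 50% confluence, 0 were higher and 3 did not pass (Nop14, Rrp12 and Ddx10), where 29.9% of all genes tested were lower and 26.5% higher. The median log2 change was -0.63. Imp4, a protein of the U3 particle that starts processing of the small subunit RNA, measured 11.11, 11.13 and 11.13 at 50%, 10.43, 10.40 and 11.12 at 95%, 10.18, 10.26 and 10.25 at 24 h, and 10.08, 10.16 and 10.17 at 48 h. Rrp9, another U3 protein, measured 9.54, 9.60 and 9.63 at 50%, 8.46, 8.49 and 9.52 at 95%, 8.72, 8.53 and 8.63 at 24 h, and 8.77, 8.83 and 8.69 at 48 h. In both genes array 3 of the 95% group lay with or next to the 50% arrays and the other 95% arrays lay far below it. Against 50% confluence the 48 h log2 changes were -0.99 for Imp4 (SE 0.15, adjusted p = 9.15e-05) and -0.83 for Rrp9 (SE 0.21, adjusted p = 0.00504). Nop14, a core factor of the early small subunit particle, showed no detectable change. It measured 9.01, 8.84 and 8.89 at 50%, 8.64, 8.90 and 9.43 at 95%, 8.91, 8.92 and 9.14 at 24 h, and 8.91, 8.84 and 8.99 at 48 h. Its groups overlapped, and it differed by 0.01 on the log2 scale between 48 h and 50% (SE 0.15, adjusted p = 0.982).

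The other small subunit factors that passed changed by -0.39 to -0.77. They were Emg1, a methyltransferase (-0.77, adjusted p = 0.000164), Heatr1, a factor that links transcription of the precursor to its processing (-0.75, adjusted p = 0.00366), Noc4l (-0.73), Tsr1 (-0.65), Wdr43 (-0.63), Utp15 (-0.54), Nob1, the endonuclease that trims the small subunit RNA (-0.52), and Imp3 (-0.39). Wdr43 and Utp15 belong to the same early subcomplex as Heatr1. The brighter probe of Tsr1, an assembly factor of late pre-ribosomes, fell while its dimmer probe gave 0.47, and the mean of both did not pass (adjusted p = 0.266).

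Large subunit assembly had 8 of 13 tested factors lower at 48 h than at 50% confluence, 1 higher and 4 that did not pass (Bop1, Rrs1, Ebna1bp2 and Nle1), against the same shares of all genes tested (29.9% and 26.5%), with a median log2 change of -0.42. Pes1, which forms a complex with Bop1 and Wdr12, measured 10.81, 10.95 and 11.04 at 50%, 9.94, 10.34 and 10.39 at 95%, 10.29, 10.10 and 10.21 at 24 h, and 10.06, 9.72 and 10.06 at 48 h. Unlike most of the genes, its array 3 of the 95% group lay beside array 2. Mrto4, a factor that precedes the ribosomal stalk protein on pre-ribosomes, measured 10.37, 10.21 and 10.28 at 50%, 9.69, 9.57 and 10.60 at 95%, 9.74, 9.72 and 9.76 at 24 h, and 9.31, 9.32 and 9.29 at 48 h. Its 48 h arrays lay below all others. Between 48 h and 50% the log2 changes were -0.98 for Pes1 (SE 0.12, adjusted p = 2.44e-05) and -0.98 for Mrto4 (SE 0.20, adjusted p = 0.00104). Bop1, the partner of Pes1, changed by -0.29 and did not pass (SE 0.13, adjusted p = 0.0904).

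Rrs1, which in yeast brings a small ribonucleoprotein into the large subunit, had the smallest change of the role. It measured 6.90, 6.83 and 6.89 at 50%, 6.68, 6.73 and 7.01 at 95%, 6.72, 6.70 and 6.74 at 24 h, and 6.69, 6.65 and 6.72 at 48 h, close to the array median throughout. The 48 h arrays lay below the 50% arrays, and the log2 change of -0.18 did not pass (SE 0.07, adjusted p = 0.0506). Rrp1, a large subunit factor known from yeast, was the exception in its role. It measured 7.46, 7.53 and 7.43 at 50%, 7.86, 7.88 and 7.82 at 95%, 7.92, 7.89 and 7.96 at 24 h, and 7.88, 7.84 and 7.81 at 48 h. All arrays of the later 3 stages, array 3 of the 95% group included, lay above the 50% arrays and within 0.2 of each other. The 48 h minus 50% log2 change was 0.37 (SE 0.05, adjusted p = 1.99e-05), a 1.29-fold higher intensity, and the call held in all alternatives.

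The remaining large subunit factors that fell were Noc2l and Noc3l, which in yeast escort pre-ribosomes out of the nucleolus (-0.97, adjusted p = 0.000945, and -0.63, adjusted p = 0.00175), Nop2, an RNA methyltransferase (-0.93, adjusted p = 0.00205), Nip7 (-0.70), Wdr74 (-0.42) and Brix1 (-0.36). Ebna1bp2 changed by -0.30 (adjusted p = 0.103) and Nle1 by -0.41 (adjusted p = 0.0646), and neither passed with all 12 arrays. Of the 33 calls in either direction, 29 held in all alternatives that tested the gene, and those of Polr1a, Tsr1, Nob1 and Wdr74 did not. Nob1 lost its call without array 3 of the 50% or of the 48 h group (adjusted p up to 0.0547), and Wdr74 without array 1 or 2 of the 50% group or array 3 of the 48 h group (adjusted p up to 0.0667).

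**Figure D2:**
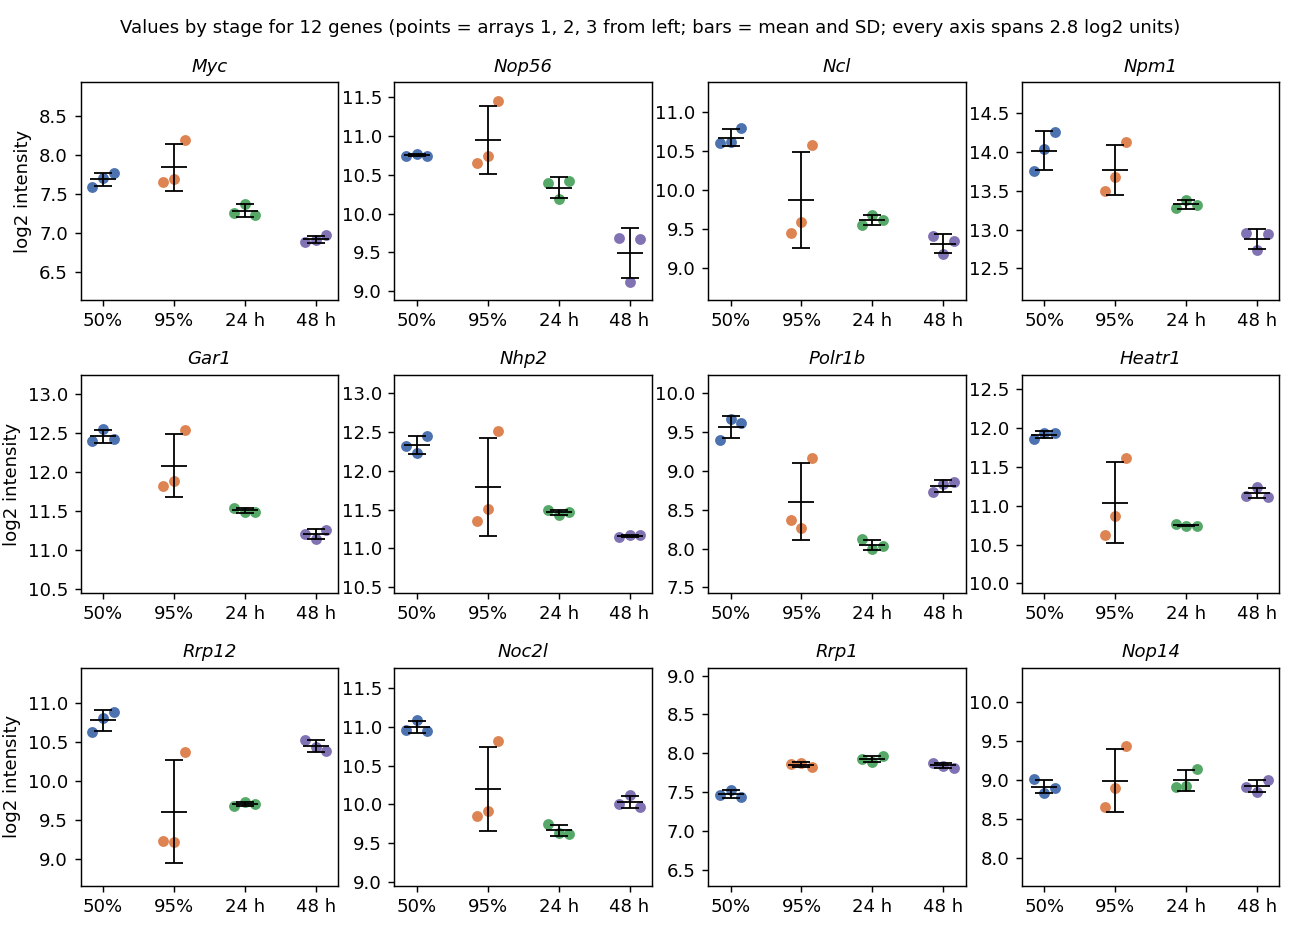
Log2 intensity (y axis) of 12 genes at the 4 stages (x axis), with points for arrays 1, 2 and 3 from left to right, and bars for the mean and SD of 3 arrays. The means of Ncl, Npm1, Gar1 and Nhp2 descend over the stages, and those of Myc and Nop56 are lower after 95% confluence. Those of Polr1b, Heatr1, Rrp12 and Noc2l are higher at 48 h than at 24 h, Rrp1 is higher after 50% and Nop14 overlaps throughout.

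Myoblasts at 95% confluence were compared with those at 50% to describe the change before differentiation. With all 12 arrays, 17 of the 41 genes were lower (21% of all genes tested) and 2, Ddx10 and Rrp1, were higher (18.9% of all genes), with a median log2 change of -0.28 against 0.00 over all genes. The size of this difference depends on whether array 3 is included. The median of the 41 genes relative to the 50% mean was -0.60 and -0.53 on arrays 1 and 2 of the 95% group and 0.11 on array 3, while it lay between -0.05 and 0.03 on the 50% arrays, between -0.57 and -0.53 on the 24 h arrays and between -0.74 and -0.65 on the 48 h arrays. Array 3 was above both other 95% arrays for 40 of the 41 genes, where this held for 41.6% of all genes. For 36 of the 41 genes it was nearer to the 50% mean than to the mean of the other 95% arrays, against 48.4% of all genes.

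**Figure D3:**
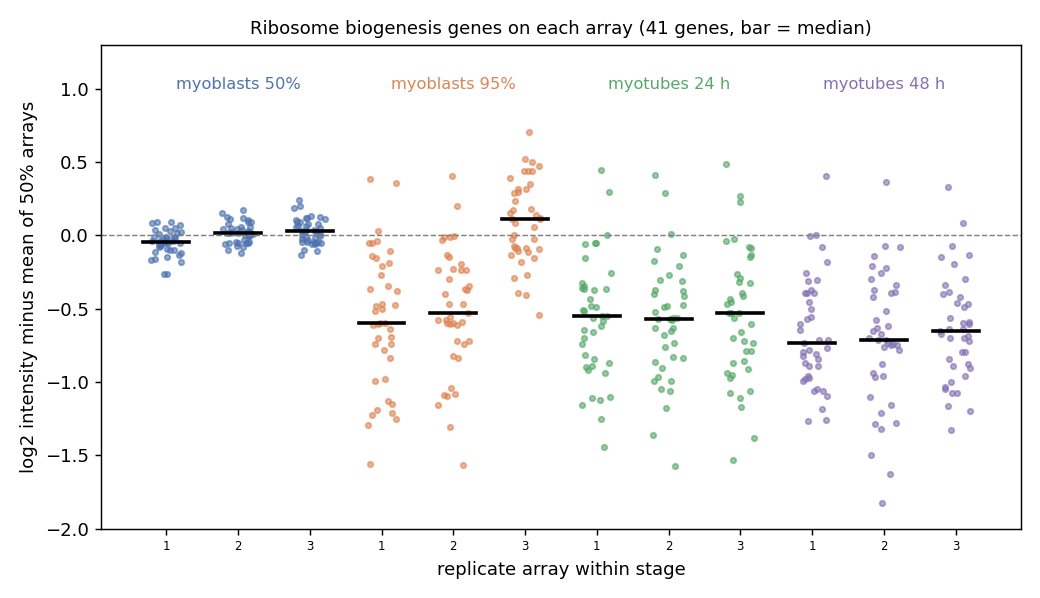
Log2 intensity minus the mean of the 50% arrays (y axis) for the 41 tested genes (points) on each of the 12 arrays (x axis), with a bar at the median. The medians are 0.11 on array 3 of the 95% group and -0.60 and -0.53 on the other 95% arrays.

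Array 3 did not resemble the 50% arrays in every respect. Myog measured 7.14, 7.71 and 6.67 on the 95% arrays, against 7.92, 7.67 and 7.71 on the 50% arrays, and Mylpf, a fast muscle myosin light chain, measured 8.21, 8.74 and 7.08, against 11.40, 10.73 and 10.69. Array 3 thus had the lowest values of both muscle genes. Ccnd1, cyclin D1, measured 12.69, 12.53 and 12.97 on the 95% arrays and 13.31, 13.49 and 13.44 on the 50% arrays, with array 3 between the other 95% arrays and the 50% arrays.

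Without array 3, 33 of the 41 genes were lower at 95% than at 50% confluence (25.5% of all genes tested) and 2 were higher (23.2%), with a median log2 change of -0.51. Leaving out array 1 or array 2 of the 95% group instead gave 9 genes lower. Rrp12, a factor for the export of pre-ribosomes, had the largest fall, by 1.18 on the log2 scale with all arrays (SE 0.23, adjusted p = 0.00199) and by 1.56 without array 3 (SE 0.07, adjusted p = 2.13e-09). It measured 9.23, 9.21 and 10.37 on the 95% arrays, against 10.64, 10.82 and 10.89 on the 50% arrays, with no overlap. Over the 41 genes, 11 had every 95% array below every 50% array (22.7% of all genes), and 34 did so without array 3 (32.1%). Polr1b changed by -0.96 (SE 0.18, adjusted p = 0.00147), or -1.25 without array 3, and Heatr1 by -0.88 (SE 0.18, adjusted p = 0.00261), or -1.17. Nop2, Noc2l and Ncl followed, with -0.84 (adjusted p = 0.00712), -0.81 (adjusted p = 0.00591) and -0.80 (adjusted p = 0.0129), or -1.18, -1.12 and -1.16 without array 3. With all arrays, 11 of the 19 calls held in all alternatives that tested the gene. Those of Ncl, Mybbp1a, Ddx21, Rrp9, Utp15, Imp4, Tsr1 and Noc3l were each lost without array 1 or array 2 of the 95% group, and that of Ncl then had an adjusted p of up to 0.0561. The calls of Ddx21 and Utp15 were lost most often, in 11 of 19 and 11 of 18 alternatives. Myc, Nop56 and Brix1 were not detectably changed on either footing, at -0.02, -0.06 and 0.00 without array 3. Nop14, Imp3 and Ebna1bp2 did not pass on either footing, at -0.14, -0.17 and -0.14 without array 3.

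Ddx10, an RNA helicase of the small subunit pathway, and Rrp1 went the other way and did so in all 3 arrays. Ddx10 measured 7.37, 7.21 and 7.45 on the 95% arrays, against 6.95, 7.04 and 7.04 on the 50% arrays, a log2 change of 0.33 (SE 0.06, adjusted p = 0.00103), or 0.28 without array 3 (adjusted p = 0.00107). It returned to 6.93, 6.87 and 6.94 at 48 h, below its 24 h values of 7.30, 7.30 and 7.28. Ddx10 signal lies close to the array median of 6.68, and an alternative filter at a level of 7.5 left this gene untested. Second probes limit some of the calls at confluence. Of 19 genes with several kept probes, 8 had probes of both signs for 95% against 50% (Bop1, Brix1, Ddx21, Ebna1bp2, Gar1, Imp4, Nle1 and Tsr1), while 3 did for 48 h against 50% (Bop1, Polr1a and Tsr1). With the mean of the kept probes the 95% calls of Ddx21, Imp4, Tsr1 and Mybbp1a were lost, with adjusted p of 0.487, 0.300, 0.416 and 0.108.

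**Figure D4:**
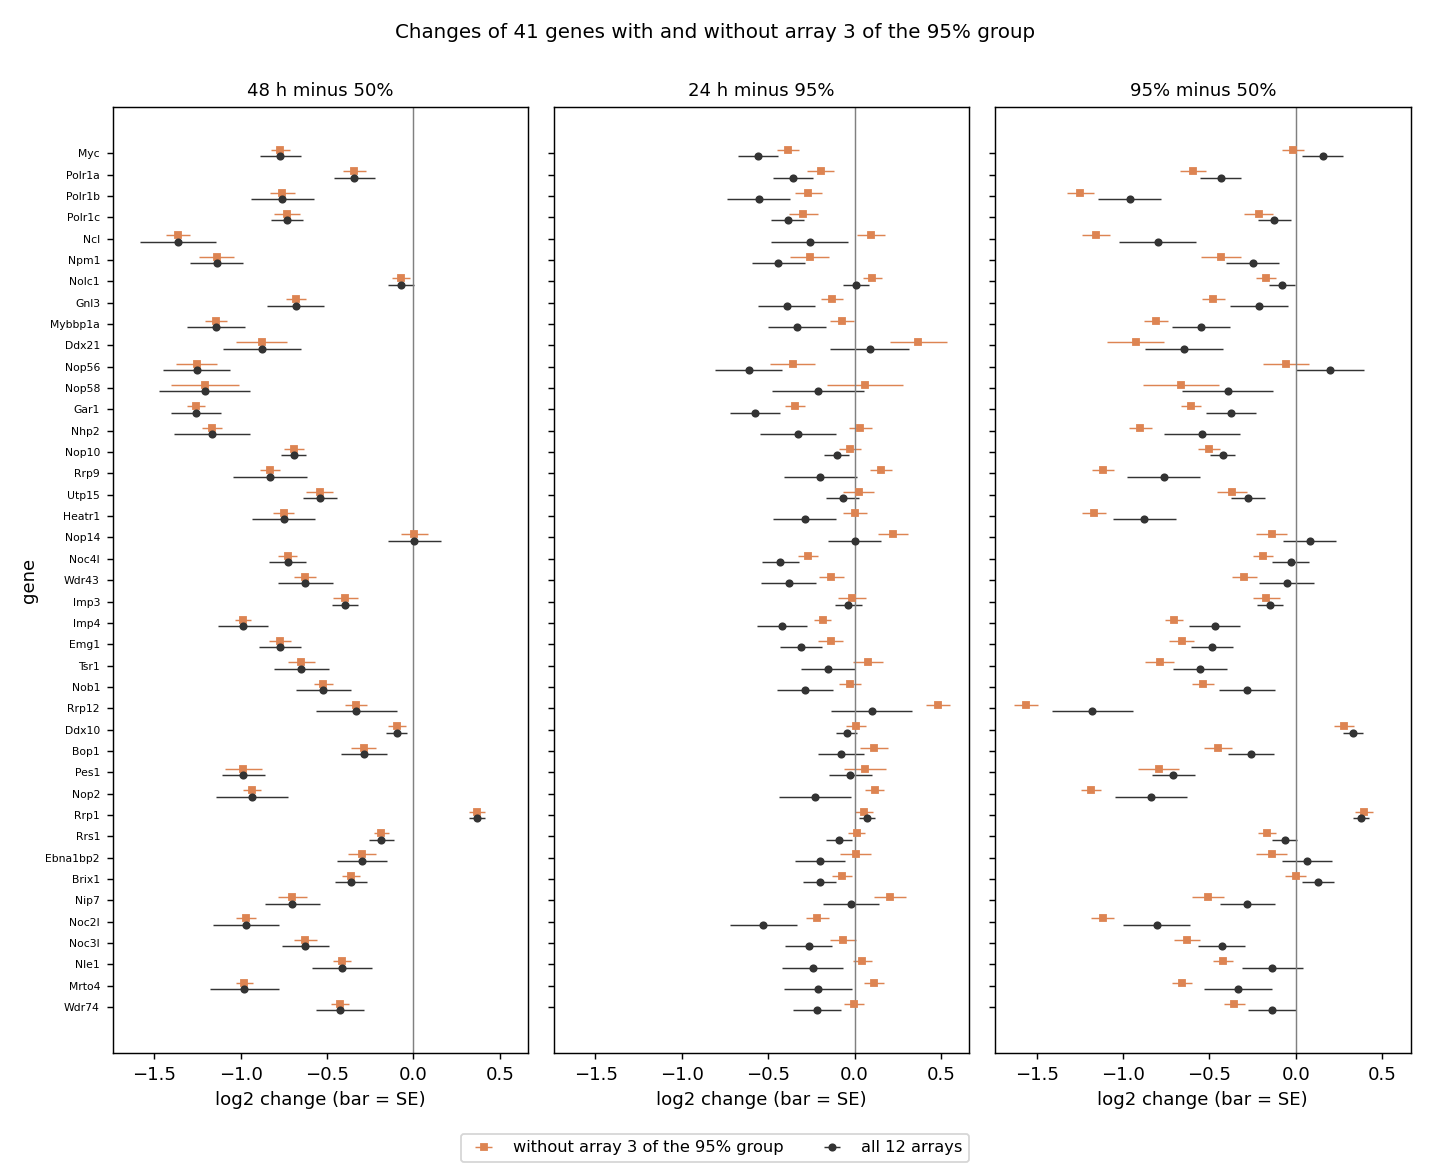
Log2 change with its standard error (x axes) of the 41 tested genes (y axis) for 48 h minus 50%, 24 h minus 95% and 95% minus 50%, from all 12 arrays (dark circles) and without array 3 of the 95% group (orange squares). Without that array the 95% minus 50% median moves to -0.51 and the 24 h minus 95% median to 0.00.

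The first day of differentiation was read from 24 h myotubes against 95% confluent myoblasts. With all arrays 10 of the 41 genes were lower (21.3% of all genes tested) and 0 were higher (15.9%), with a median log2 change of -0.23. Without array 3 the median was 0.00, with 8 genes lower (22.3%) and 1, Rrp12, higher (16.9%), so the share of lower genes was near that of all genes in both cases. Polr1a and Npm1 lost their calls without array 3 (adjusted p = 0.0564 and 0.0921). The calls of Myc, Polr1c, Gar1 and Noc4l held in all alternatives. Those of Polr1a, Polr1b, Npm1, Nop56, Imp4 and Noc2l were lost in some, each of them when the 24 h group lacked its array 2 or its array 3, with an adjusted p of up to 0.129. Of 19 alternatives, the call was lost in 13 for Noc2l, 10 for Imp4, 8 for Npm1, 6 for Polr1a, 4 for Polr1b and 3 for Nop56. Gar1 changed by -0.58 (SE 0.15, adjusted p = 0.00816), or -0.35 without array 3, Polr1c by -0.39 (SE 0.09, adjusted p = 0.00626), or -0.30, and Noc4l, a small subunit factor, by -0.43 (SE 0.11, adjusted p = 0.00778), or -0.27. Rrp12 was at 9.68, 9.73 and 9.71 at 24 h, above arrays 1 and 2 and below array 3 of the 95% group.

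Over the second day, 48 h against 24 h myotubes, 32 of the 41 genes did not pass. Lower at 48 h were 6 genes (14.6%, against 22.1% of all genes tested), namely Myc, Npm1, Nop56, Imp3, Ddx10 and Brix1, and higher were 3 (7.32%, against 22.8%), namely Polr1a, Polr1b and Rrp12, both below the shares of all genes. Polr1b rose by 0.76 (SE 0.18, adjusted p = 0.0049), Polr1a by 0.45 (SE 0.12, adjusted p = 0.00765) and Rrp12 by 0.75 (SE 0.23, adjusted p = 0.0214). All 3 had every 48 h array above every 24 h array, as did 6 of the 41 genes in all (29.8% of all genes), while 21 had every 48 h array below (32.2%). With array 3 of the 95% group left out of the filter and the fit, 17 genes were lower (26.4%) and 6 higher (25.8%), the added higher ones being Heatr1, Noc2l and Nop2. Heatr1 measured 11.13, 11.24 and 11.12 at 48 h, against 10.76, 10.74 and 10.74 at 24 h, a log2 difference of 0.41 with adjusted p = 0.0871 from all arrays and 6.12e-05 without array 3. Noc2l measured 10.01, 10.12 and 9.96 at 48 h, against 9.75, 9.63 and 9.62 at 24 h, a difference of 0.36 with adjusted p = 0.152 from all arrays and 0.000135 without array 3. The calls of Polr1a, Polr1b, Nop56 and Ddx10 held in all alternatives that tested the gene. Those of Myc, Npm1, Imp3, Rrp12 and Brix1 were lost without array 2 of the 24 h group and in some others. Their adjusted p reached up to 0.163.

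Whether the second day differed from the first was tested as the difference of both steps. It passed for Polr1b (1.31, SE 0.32, adjusted p = 0.00854) and Polr1a (0.81, SE 0.20, adjusted p = 0.0107) and for Ddx10 (-0.33, SE 0.10, adjusted p = 0.0294). The call of Polr1b held in all alternatives, that of Polr1a was lost without array 3 of the 24 h group (adjusted p = 0.0691), and that of Ddx10 without any 1 of the 24 h arrays or array 2 of the 48 h group (adjusted p up to 0.0922). All genes tested passed at 16.1% higher and 12.9% lower. Without array 3 the differences were 1.03, 0.65 and -0.39, with 4 of the 41 genes higher (19.8% of all genes) and 5 lower (17%). Both steps share the 24 h arrays. Over both days, 48 h against 95%, 20 genes were lower (29.6% of all genes tested) and 1, Rrp12, was higher (26.1%), with a median log2 change of -0.28. Without array 3 these were 18 lower (30.6%), 6 higher (26.8%) and a median of -0.17, and Utp15 and Nip7 lost their calls (adjusted p = 0.114 and 0.101). With all arrays 14 of the 21 calls held in all alternatives that tested the gene. Those of Ncl, Gnl3, Nop58, Nhp2, Utp15, Imp3 and Nip7 were each lost without at least 1 of the 48 h arrays. Their adjusted p reached up to 0.135 in some alternative. The calls of Ncl and Nip7 were lost most often, in 12 and 9 of 19 alternatives. The largest fall was that of Nop56, by 1.45 on the log2 scale (SE 0.19, adjusted p = 4.34e-05), or by 1.20 without array 3. Rrp12 rose by 0.85 (SE 0.23, adjusted p = 0.00845), or 1.23. A change at any of the 4 stages passed the moderated F-test for 35 of the 41 genes, against 72.2% of all genes tested, and for 39 without array 3, against 74.7%.

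Other genes of the same pathway were more often lower than higher at 48 h against 50% confluence, where 29.9% of all genes tested were lower and 26.5% higher. Of 13 further genes of the RNA polymerase I machinery 9 were lower and 0 higher, including Polr2h, a subunit shared by the nuclear polymerases (-0.80), Tcof1, treacle (-0.79), and Ubtf, the upstream binding factor (-0.66). The assembly factors of snoRNPs and the RNA exosome, which trims the precursor, had 15 of 18 lower and 1 higher, led by the exosome genes Exosc2 (-1.53) and Mtrex (-1.26) and by Snu13 (-1.25). Further small subunit factors were lower in 23 of 41 and higher in 4, with Rcl1 the lowest (-1.72) and the kinase Riok3 the highest (0.55). Further large subunit factors were lower in 23 of 42 and higher in 4, with Rrp1b (-0.98) and Eif6 (-0.91) lowest and Nsa2 (0.58) highest. The medians of these lists were -0.39, -0.60, -0.27 and -0.38, against -0.70 for the 41 genes and -0.01 for all genes tested. Without array 3 of the 95% group 10, 16, 27 and 27 of these genes were lower, where 32% of all genes tested were. The list of RNA polymerase III, which makes the smallest ribosomal RNA and transfer RNAs, had 5 of 19 lower and 3 higher, a share of lower genes (26.3%) near that of all genes.

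Genes known as Myc targets outside the nucleolus were lower in 27 of 32 (29.9% of all genes tested) and higher in 3 (26.5%). Their median was -0.78, and without array 3 of the 95% group 28 were lower (32% of all genes). Srm, spermidine synthase (-2.12), Shmt1, of one-carbon metabolism (-2.08), and Pfas, of purine synthesis (-1.58), fell most, and Ccnd2, cyclin D2, rose (1.12). In the Myc network itself 3 of 11 were lower (27.3%) and 4 higher (36.4%), near the 29.9% and 26.5% of all genes tested. Mycl, a paralog of Myc, averaged 8.30 ± 0.02 at 50%, 8.78 ± 0.86 at 95%, 11.28 ± 0.07 at 24 h and 10.91 ± 0.11 at 48 h (SD, n = 3 each), a 48 h minus 50% log2 change of 2.61 (SE 0.30, adjusted p = 1.03e-05). Mxd4, which competes with Myc for its partner Max, rose by 1.28 (adjusted p = 0.000557), and Mxd3, of the same family, fell by 0.67 (adjusted p = 1.90e-06). Of 9 genes of p53 and nucleolar stress 5 were higher (26.5% of all genes tested), among them Gadd45a (2.51) and the cell cycle inhibitor Cdkn1a (2.37), and 1, the p53 inhibitor Mdm2, was lower (-0.38), as were 29.9% of all genes.

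**Figure D5:**
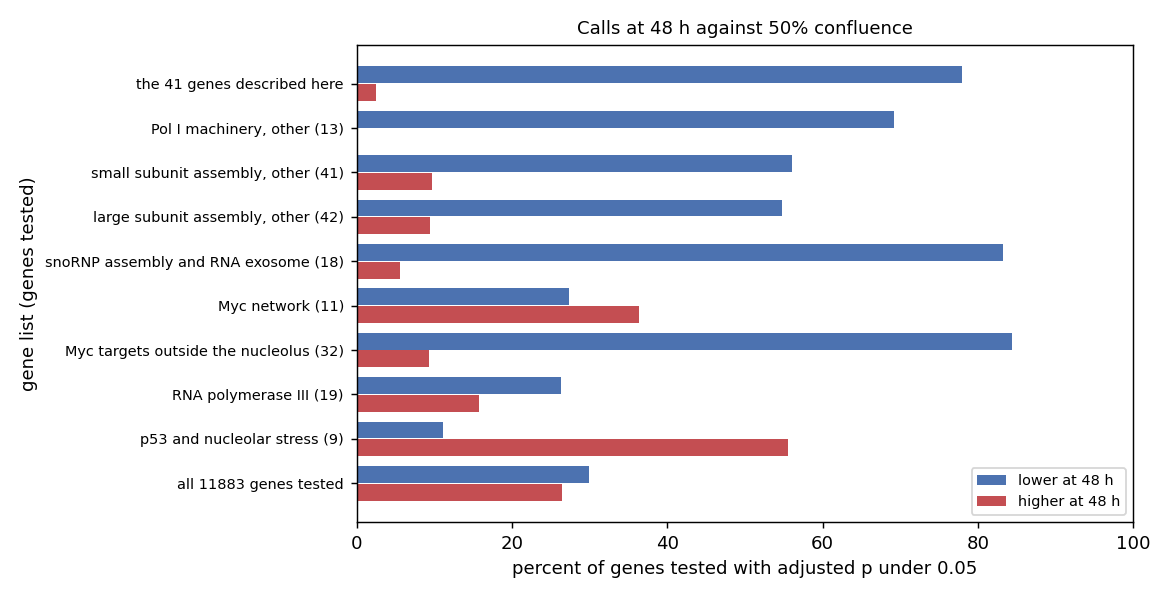
Percent of the genes tested (x axis, from 0) that passed as lower (blue) or higher (red) at 48 h against 50% confluence, for the 41 genes, for each further gene list (y axis, number tested in brackets) and for all genes tested. Of the 41 genes 78% were lower and of all genes 29.9%.

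The other genes of the 50 gave no test. Npm3, Fbl and Ddx18 had no probe, and probes of an Npm3 pseudogene were not used in its place. Dkc1, Utp18, Bysl, Dimt1, Wdr12 and Nop16 had probes at background, with group means of 6.47 to 6.64 below the array median of 6.68, and nothing about their levels could be read from them.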

How the data were processed

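Total RNA of 12 C2C12 samples was labelled as biotin cRNA and hybridised to Illumina bead arrays, per the labels' protocols. The authors deposited normalised log2 intensities for 45281 probes. RMA and lumi are named in the submitters' processing notes without role or version, and all 12 columns hold a single set of values between 6.319 and 15.253, as quantile normalisation leaves them. Plain and variance-stabilised log2 cannot be told apart, so changes of dim genes may be understated. A table of signal before normalisation has 24 columns that match no sample's labels. It was not used, so its planned background correction was not run.

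Probes of 1 gene (34885) were named through the platform annotation. A probe was kept if a group had all 3 of its arrays above the array median, and the brightest kept probe stood for the gene. Group means of 11883 genes over 12 arrays were fitted by lmFit and eBayes (R 4.3.3, limma 3.58.1, 8 residual degrees of freedom), with Benjamini-Hochberg adjustment over all genes tested and a threshold of 0.05. The same rule with array 3 of the 95% group left out tested 12007 genes. The fit was tested on simulated data. Array number limits the precision.

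The 50 genes, their roles and the lists were chosen with earlier results of these data known. Values on every array are given for Myc and, in each role, for the 2 largest and the 1 smallest changes (all in roles of up to 4) and for genes called against their role; of each list up to 3 called genes in each direction are named. Further genes were chosen after their values were seen.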

Additional observations from a re-analysis of the deposited data

How the results depend on the processing

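Beside the 12 fits that leave out 1 array, 7 alternatives changed the filter, the choice of probe, the variance model, array weights, centring or the block. The 48 h minus 50% result kept its direction throughout, with 29 to 37 genes lower, 1 higher and a median of -0.74 to -0.65. Leaving out single arrays gave, for 95% minus 50%, 9 to 33 lower, 2 higher and a median of -0.51 to -0.19; for 24 h minus 95%, 4 to 15 lower, 0 to 1 higher and -0.38 to 0.00; for 48 h minus 24 h, 2 to 17 lower, 2 to 6 higher and -0.16 to -0.12. For 48 h minus 95% they gave 14 to 26 lower, 1 to 6 higher and -0.41 to -0.17, for the second minus the first day 0 to 5 lower, 1 to 4 higher and -0.06 to 0.22, and for the F-test 32 to 39. Without array 3 of the 95% group the signs of the 24 h minus 95% median (0.0027) and the second minus first day median (-0.0635) reversed. The genes that then passed with a reversed sign were Rrp9 (0.28) and Nop2 (0.25) in 48 h minus 95%. Nhp2 did so in the second minus the first day (-0.33). Other genes changed sign without passing, among them Ncl in 24 h minus 95% (-0.26 to 0.095) and Noc2l in 48 h minus 95% (-0.16 to 0.15). Without array 1 of that group Rrp9, Nop2 and Nhp2 gave -0.25, -0.28 and 0.25. Array weights, which gave array 3 of the 95% group 0.147, left 3 genes higher for 48 h minus 95%, 1 higher for 24 h minus 95%, 19 lower and 5 higher for 48 h minus 24 h, 28 lower for 95% minus 50%, and 3 lower, 4 higher and a median of -0.0134 for the second minus the first day. Without a filter 5 genes were lower for 24 h minus 95%. A level filter of 7.5, which tests fewer genes, left 1 higher for 95% minus 50% and 0 lower for the second minus the first day, and the mean of kept probes gave 2 higher for 48 h minus 95%. Apart from leaving out arrays or probes, the cause was not tested. With the replicate number as a block, 33 genes were lower for 48 h minus 50% and 9 for 48 h minus 24 h, and no count moved by over 1.5 times. The labels do not say whether same-numbered arrays share more than a number. The r of their deviations was over 0.1 in 5 of 18 pairs (-0.0907 to 0.333). Of 12 arrays 8 correlated best with their own number, a hint from the data and not the design. The planned normalisation of the table before normalisation was not run, as its columns could not be given samples.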
